A study of Mus musculus with 20 samples.

Results

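Integrins and cell adhesion receptors are the surface proteins by which a cell holds on to matrix and to other cells. The set described here held 32 listed mouse genes: 14 integrin alpha subunits, 8 integrin beta subunits, 5 receptors of the immunoglobulin superfamily, 2 cadherins and 3 syndecans. All 32 were matched by symbol among the 47729 gene identifiers counted. A gene was reported where its mean was at least 0.5 CPM (the usual depth-scaled count, here on TMM-scaled library totals) in at least 1 group, which 29 genes met. The other 3 were Itgae, with a highest group mean of 0.309 CPM, Itgb6 (0.0662 CPM) and Itgb7 (0.430 CPM), all 3 subunits known from leukocytes or epithelium. All 29 reported genes were among the 14820 genes tested.

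Polyadenylated RNA had been sequenced from colon fibroblasts of C57BL6/J mice, grown in 2D culture in Advanced DMEM F12 with 10% serum, in a series on rectal cancer that dealt with inflammatory fibroblasts and failure of neoadjuvant therapy. There were 5 groups of 4 libraries (I to IV): irradiated APTKA medium, APTKA medium, irradiated APTK medium, APTK medium and untreated fibroblasts, whose titles call them wild-type. The strain is the same in all groups, and no other genotype is labelled. Treated cells were kept for 24 h in medium conditioned by organoids named APTKA or APTK, names that the labels do not expand, and the irradiated arms had 5 fractions of 2 Gy. The labels do not give whether organoids or fibroblasts were irradiated, and hold neither an irradiated untreated group nor one given unconditioned organoid medium. No label states that the libraries of a group are independent cultures or animals, so the spread behind each p-value may be technical.

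An integrin is a pair of an alpha and a beta subunit, and the alpha subunit largely sets the ligand: collagen, laminin, or proteins with an RGD sequence such as fibronectin and vitronectin. The beta subunit Itgb1 pairs with most alpha subunits of fibroblasts. Receptors of the immunoglobulin superfamily and cadherins join cells to each other, and syndecans are heparan sulfate proteoglycans that act beside integrins at matrix contacts.

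Library totals lay between 17.3 and 31.6 M counts. The 32 listed genes took 0.546% of counts with irradiated APTKA medium, 0.524% with APTKA, 0.768% with irradiated APTK, 0.762% with APTK and 0.756% in untreated cells (means of 4 libraries). Markers of 7 cell types were measured to check the label. The 8 fibroblast markers summed to 26830 to 30960 CPM with APTKA medium and 45170 to 50720 CPM with APTK medium, against 53200 to 60170 CPM in untreated cells, most of it from 3 collagen genes. Pdgfrb followed that order, at 363.8 CPM with APTKA and 862.2 CPM with APTK medium, against 889.3 CPM in untreated cells. Pdgfra, Lum, Thy1 and Dcn did not. Pdgfra averaged 63.2 CPM with APTKA and 262 CPM with APTK medium, against 81.3 CPM in untreated cells. Lum, Thy1 and Dcn were also highest with APTK medium among these 3 groups. The 6 epithelial markers summed to at most 1.49 CPM in any library, the 6 endothelial markers to at most 3.05 CPM and the 7 leukocyte markers to at most 8.24 CPM, with Cd3e at 0 throughout, Epcam reaching 0.105 CPM and Ptprc 0.195 CPM at most. The 7 markers of pericytes and smooth muscle summed to 935 to 1025 CPM with APTKA medium, 1026 to 1187 CPM with APTK medium and 911 to 1111 CPM in untreated cells. In such bulk samples, fewer cells of a type and less RNA per cell cannot be told apart.

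The first comparison asked how APTKA medium changes these receptors relative to untreated fibroblasts. Icam1, the ligand of leukocyte integrins on stimulated cells, rose 3.10 ± 0.117 on the log2 scale (SE), and Itga5 and Sdc4 rose by less. Alcam and Ncam1, both immunoglobulin-type cell contact receptors, and the collagen receptor subunits Itga1 and Itga11 fell by more than 1 on that scale. So did Itgb8, which met the reporting rule only through the untreated group. With edgeR's quasi-likelihood test at a false discovery rate of 5%, 4 of the 29 genes were higher and 19 lower, 7 of them by at least 2-fold. Among all genes tested 31.5% were higher and 29.9% lower. The median log2 fold change was -0.66 over the 29 genes and 0.00 over all genes tested. The 6 genes that did not pass were Itga4, Itga6, Itga9, Itga10, Itgb2 and Itgb4.

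APTK medium, set against the same untreated libraries, gave 8 genes higher and 13 lower, 5 by at least 2-fold, against 20.9% higher and 22.5% lower among all genes tested. The median was -0.09 over the 29 genes and 0.00 over all. The 5 genes that changed at least 2-fold with APTK medium included Itgb8 and Itgb2, both lower. Itgb8 met the reporting rule only through the untreated group, so its fall is partly built into the choice of genes. Itgb2 met the rule through the untreated (0.696 CPM) and APTKA groups (0.524 CPM) and averaged 0.292 CPM with APTK medium. The direct comparison of APTKA with APTK medium gave 4 genes higher and 17 lower, 5 by at least 2-fold, against 31.1% and 31.8% of all genes. Its median was -0.32 over the 29 genes and -0.03 over all. Both media were compared with 1 set of untreated libraries, so their values are given side by side and no overlap is drawn from them.

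**Figure D1:**
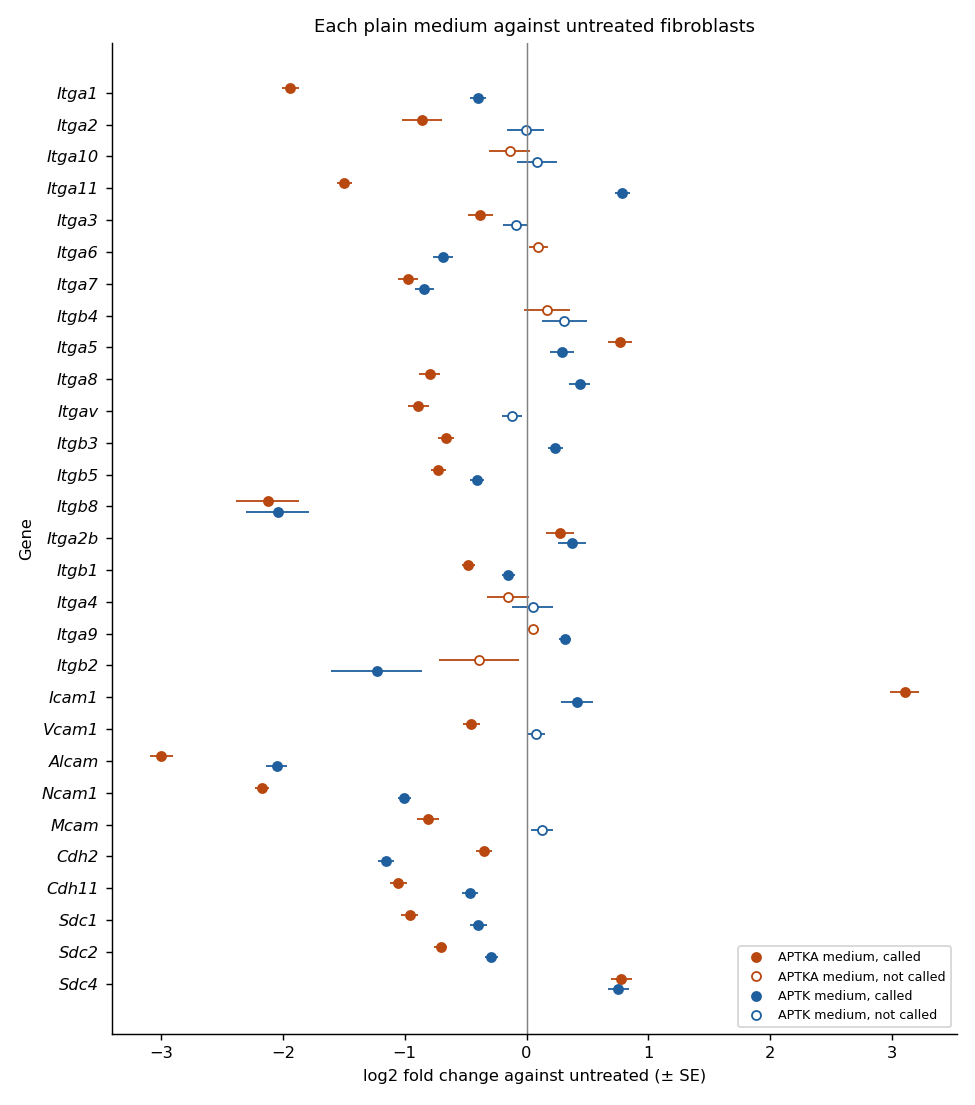
Log2 fold change against untreated fibroblasts (x axis, ± SE) of the 29 reported genes (y axis, by role) for APTKA medium (orange) and APTK medium (blue); filled points passed the 5% threshold. Icam1 lies far right for APTKA medium, Alcam far left for both, and Itga11, Itga8 and Itgb3 lie on opposite sides for the 2 media.

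Promoters are shown for the largest rise (Icam1), the largest fall (Alcam) and the other 2 rises of more than 0.5 log2 (Itga5, Sdc4). Each runs 5′ to 3′ on the gene's strand from 250 bases before to 50 bases after the RefSeq start (assembly GRCm38.p6), with matches to GGNNNTTCC, an NF-kB-like pattern searched on both strands, in capitals.
Icam1, chr9:21015690-21015989, plus strand: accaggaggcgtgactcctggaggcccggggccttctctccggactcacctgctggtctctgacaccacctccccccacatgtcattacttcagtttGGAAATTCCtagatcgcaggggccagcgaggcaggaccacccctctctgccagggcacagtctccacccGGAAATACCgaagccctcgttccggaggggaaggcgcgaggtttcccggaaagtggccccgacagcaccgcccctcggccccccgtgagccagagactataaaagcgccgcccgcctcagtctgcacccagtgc
Sdc4, chr2:164443139-164443438, minus strand: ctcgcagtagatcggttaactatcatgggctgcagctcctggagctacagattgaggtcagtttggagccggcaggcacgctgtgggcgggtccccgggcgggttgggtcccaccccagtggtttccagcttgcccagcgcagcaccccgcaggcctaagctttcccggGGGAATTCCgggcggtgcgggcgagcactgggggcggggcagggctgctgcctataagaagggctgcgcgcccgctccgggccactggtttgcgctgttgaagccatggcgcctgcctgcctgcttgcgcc
Itga5, chr15:103366742-103367041, minus strand: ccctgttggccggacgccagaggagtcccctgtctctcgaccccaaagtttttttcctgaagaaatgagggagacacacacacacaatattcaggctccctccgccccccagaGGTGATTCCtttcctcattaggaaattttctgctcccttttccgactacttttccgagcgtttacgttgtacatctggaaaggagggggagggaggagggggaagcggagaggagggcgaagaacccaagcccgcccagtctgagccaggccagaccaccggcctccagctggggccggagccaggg
Alcam, chr16:52453032-52453331, minus strand: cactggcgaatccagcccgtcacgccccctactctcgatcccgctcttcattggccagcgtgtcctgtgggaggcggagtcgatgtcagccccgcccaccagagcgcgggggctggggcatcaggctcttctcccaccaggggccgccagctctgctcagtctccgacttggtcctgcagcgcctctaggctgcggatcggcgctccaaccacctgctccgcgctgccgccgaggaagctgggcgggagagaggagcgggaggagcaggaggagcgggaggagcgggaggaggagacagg
The Icam1 window held a pair of matches, at positions -153 and -84 counted from the start, Sdc4 had 1 at -81, Itga5 had 1 at -137 and Alcam had none.

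RefSeq promoter windows were found for 19 of the 29 genes, and 5 of these genes held the NF-kB-like pattern: Icam1, Itga2, Itga5, Itgb1 and Sdc4. Of the 4 genes higher with APTKA medium, all with a window, 3 held it, and of 12 genes lower with a window 2 did. The windows printed above favour genes that rose. Itgb8, Itga1 and Itga11 fell by more than Itga5 or Sdc4 rose, held no match and are not printed. Itga2b, which rose without a match, and Itga2 and Itgb1, which fell and held a match, are not printed either. The pattern stood in 18.5% of all 32851 promoter windows of that length. The AP-1-like pattern TGANTCA was present in windows of 2 of the 19 genes, Itga3 and Itga9, and in 7.81% of all windows. Both matches lay in windows inside the annotated gene. The Itga9 window began at 118711442, in a plus-strand gene that starts at 118606690. The Itga3 match was in the window from 95069149 to 95069448, and the window near its annotated start (95076665 to 95076964) held no match. The E-box CACGTG stood in 0 of the 19 and in 7.15% of all. These matches describe the letters of the windows and carry no test.

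Among collagen receptors, Itga11 and Itga1 were abundant and Itga2 and Itga10 scarce. Itga11 (ENSMUSG00000032243, mm10, chromosome 9, 62677826 to 62783982) encodes the alpha subunit of a fibrillar collagen receptor typical of fibroblasts. It had 383, 366, 339 and 335 CPM with APTKA medium and 1696, 1679, 1691 and 1858 CPM with APTK medium, against 1009, 1014, 979 and 1012 CPM in untreated cells. The 3 groups did not overlap, with APTKA lowest and APTK highest. Itga11 fell by 1.496 ± 0.063 with APTKA medium (adjusted p = 2.54e-17) and rose by 0.79 ± 0.062 with APTK medium (7.03e-11), and APTKA against APTK gave -2.28 ± 0.064 (6.95e-21).

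Itga1 (ENSMUSG00000042284, chromosome 13, 114953096 to 115101964), whose receptor also binds basement membrane collagen, fell with both media. Its libraries held 43.2, 42.2, 42.3 and 46.0 CPM with APTKA medium and 131, 124, 117 and 132 CPM with APTK medium, against 175, 171, 166 and 155 CPM in untreated cells. The groups again did not overlap. The log2 fold change was -1.94 ± 0.070 with APTKA medium (adjusted p = 8.50e-19) and -0.40 ± 0.066 with APTK medium (1.65e-05), and -1.54 ± 0.069 between APTKA and APTK (1.63e-16).

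Itga2 (ENSMUSG00000015533, chromosome 13, 114833081 to 114932100), a collagen receptor subunit best known from platelets and epithelium, had 1.45, 1.82, 1.91 and 1.49 CPM with APTKA medium and 3.88, 2.79, 2.60 and 2.71 CPM with APTK medium, against 3.40, 2.89, 2.62 and 3.14 CPM in untreated cells. The APTKA libraries lay below all the others. The fall with APTKA medium was -0.86 ± 0.166 (adjusted p = 6.31e-05), while APTK medium gave -0.01 ± 0.154 (0.977). Itga10, known from cartilage, averaged 2.43 ± 0.457 CPM with APTKA medium and 2.81 ± 0.413 with APTK medium, against 2.66 ± 0.355 CPM in untreated cells (SD, n = 4), and did not pass in these 3 comparisons. It shares 1739 exon bases with Gm42957 on the same strand, so its reads are uncertain.

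Laminin receptor subunits fell or did not pass against untreated cells. Itga7, a laminin receptor subunit of muscle, averaged 29.8 ± 1.97 CPM with APTKA medium and 32.7 ± 2.36 CPM with APTK medium, against 58.5 ± 2.54 CPM in untreated cells (log2 -0.97 ± 0.079 and -0.84 ± 0.079). Itga3 averaged 35.8 ± 1.41 CPM with APTKA medium and 43.8 ± 3.22 CPM with APTK medium, against 46.6 ± 2.44 CPM in untreated cells. It fell with APTKA medium (-0.38 ± 0.101, adjusted p = 0.00239) and did not pass with APTK medium (-0.09 ± 0.1004, 0.499). It was lower with APTKA than with APTK (-0.29 ± 0.101, 0.0162), a call lost without APTK IV (0.0577). Itga6 went the other way between the media, at 19.6 ± 1.19 CPM with APTKA medium and 11.4 ± 1.51 CPM with APTK medium, against 18.3 ± 1.26 CPM in untreated cells. It did not pass with APTKA medium (0.10 ± 0.080), fell with APTK medium (-0.69 ± 0.084) and was higher with APTKA than with APTK medium (0.78 ± 0.083, adjusted p = 4.96e-09). Itgb4, the hemidesmosome partner of Itga6 in epithelium, averaged 2.49 ± 0.156 CPM with APTKA and 2.75 ± 0.468 CPM with APTK medium, against 2.21 ± 0.369 CPM in untreated cells, and did not pass. Irradiated APTKA against irradiated APTK medium did not pass either (-0.39 ± 0.188, adjusted p = 0.0736), but passed with upper quartile scaling (0.0377) and without irradiated APTKA I (0.0131) or irradiated APTK II (0.0280).

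Receptors of fibronectin, vitronectin and other RGD proteins split by subunit. Itga5 (ENSMUSG00000000555, chromosome 15, 103344286 to 103366763), the alpha subunit of the main fibronectin receptor, averaged 326 ± 25.5 CPM with APTKA medium and 234 ± 21.2 CPM with APTK medium, against 192 ± 28.5 CPM in untreated cells. It rose by 0.77 ± 0.098 with APTKA medium (adjusted p = 6.07e-07) and by 0.29 ± 0.098 with APTK medium (0.0201), and was higher with APTKA than with APTK (0.48 ± 0.098, 0.000221). The APTK call was lost with the 2 groups alone (0.0605) and without untreated III (0.0772) or APTK II (0.0637). Itgav, shared by the vitronectin receptors, averaged 274 ± 18.9 CPM with APTKA and 467 ± 48.9 CPM with APTK medium, against 507 ± 61.2 CPM in untreated cells. It fell with APTKA medium (-0.89 ± 0.083) and did not pass with APTK medium (-0.12 ± 0.082, adjusted p = 0.255).

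Itga8 (ENSMUSG00000026768, chromosome 2, 12106632 to 12301922), a receptor subunit of mesenchymal and smooth muscle cells, had 33.7, 30.6, 33.8 and 35.5 CPM with APTKA medium and 83.4, 85.5, 64.8 and 79.7 CPM with APTK medium, against 57.9, 54.6, 59.8 and 59.3 CPM in untreated cells. The groups did not overlap and APTK was highest. It fell by 0.79 ± 0.086 with APTKA medium (adjusted p = 1.15e-08), rose by 0.44 ± 0.083 with APTK medium (0.00013), and differed by -1.23 ± 0.085 between them (3.54e-12). The summed pericyte and smooth muscle markers overlapped between APTKA and untreated libraries and between APTK and untreated libraries, but not between APTKA (935 to 1025 CPM) and APTK libraries (1026 to 1187 CPM). They overlapped between irradiated APTKA (916.2 to 1137 CPM) and irradiated APTK libraries (894.4 to 1118 CPM). The single markers did not move together. Myh11 averaged 212.7 CPM with APTKA and 354.2 CPM with APTK medium, against 311.1 CPM in untreated cells. In the same order of groups, Notch3 averaged 73.67, 102.7 and 98.74 CPM and Cspg4 10.99, 15.49 and 17.96 CPM. Lmod1 (212.2, 186 and 141.2 CPM) and Des (4.392, 2.716 and 1.756 CPM) went the other way, with untreated cells lowest. Cnn1 averaged 467, 457.5 and 462.8 CPM and Rgs5 3.266, 2.804 and 3.322 CPM. The part of these markers in the result was not tested.

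Among the partners of Itgav, Itgb8 (ENSMUSG00000025321, chromosome 12, 119158022 to 119238802), which with Itgav activates latent TGF-beta, was low throughout. It had 0.370, 0.280, 0.565 and 0.431 CPM with APTKA medium and 0.461, 0.268, 0.366 and 0.636 CPM with APTK medium, against 1.32, 1.94, 1.84 and 2.02 CPM in untreated cells. Every untreated library lay above all treated ones. Itgb8 met the 0.5 CPM rule only through the untreated group, where its mean was 1.78 CPM. Its mean was 0.412 CPM with APTKA, 0.472 CPM with irradiated APTKA, 0.432 CPM with APTK and 0.485 CPM with irradiated APTK medium. A lower level outside the untreated group is thus partly built into the choice of this gene. The log2 fold change was -2.12 ± 0.259 with APTKA medium (adjusted p = 5.67e-08) and -2.04 ± 0.258 with APTK medium (3.30e-07), and -0.08 ± 0.328 between APTKA and APTK (0.846).

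Itgb3, a vitronectin receptor subunit, averaged 23.5 ± 2.07 CPM with APTKA and 43.7 ± 2.14 CPM with APTK medium, against 37.1 ± 1.92 CPM in untreated cells, a fall of -0.66 ± 0.063 with APTKA and a rise of 0.24 ± 0.061 with APTK medium. Itgb5, another vitronectin receptor subunit, averaged 495 ± 16.9 CPM with APTKA and 618 ± 19.5 CPM with APTK medium, against 819 ± 61.1 CPM in untreated cells, and fell with both (-0.73 ± 0.061 and -0.41 ± 0.061). Itgb1, the most abundant gene of the set in CPM, averaged 2056 ± 126 CPM with APTKA and 2580 ± 68.5 CPM with APTK medium, against 2863 ± 38.8 CPM in untreated cells. It fell by 0.48 ± 0.056 with APTKA medium. The smaller fall with APTK medium (-0.15 ± 0.055, adjusted p = 0.0297) was lost with upper quartile scaling (0.0993), without a filter (0.103) and without untreated I (0.0616), APTK I (0.0699) or APTK III (0.0728).

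Itga2b, the alpha subunit of the platelet fibrinogen receptor, averaged 6.17 ± 0.677 CPM with APTKA and 6.60 ± 0.941 CPM with APTK medium, against 5.10 ± 0.227 CPM in untreated cells. The rise with APTKA medium was 0.28 ± 0.114 (adjusted p = 0.0372). That call was lost with upper quartile scaling (0.0623), without a filter (0.0522) and without untreated I (0.0843), II (0.0748) or III (0.0559) or APTKA I (0.0690) or II (0.154). The rise with APTK medium was 0.37 ± 0.113 (0.00933), lost without APTK I (0.0578). Of 4 platelet markers, the sum was 6.30 to 8.26 CPM with APTKA and 4.03 to 5.48 CPM with APTK medium, against 3.92 to 4.78 CPM in untreated cells, with Gp9 at most 0.0424 CPM. These markers did not move together. Ppbp averaged 3.945 CPM with APTKA and 1.738 CPM with APTK medium, against 0.860 CPM in untreated cells. In the same order of groups, Gp1ba averaged 3.175, 2.905 and 3.161 CPM and Pf4 0.147, 0.337 and 0.278 CPM. Their part in the result was not tested.

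Subunits best known from leukocytes differed widely in level. Itgb2 (ENSMUSG00000000290, chromosome 10, 77530252 to 77565708), the common beta subunit of leukocyte integrins, had 0.403, 0.700, 0.522 and 0.470 CPM with APTKA medium and 0.4221, 0.229, 0.219 and 0.297 CPM with APTK medium, against 0.799, 1.03, 0.429 and 0.523 CPM in untreated cells. The APTK libraries lay below the untreated ones, the highest APTK library at 0.4221 CPM and the lowest untreated one at 0.4294 CPM, and the APTKA libraries overlapped them. The fall with APTK medium was -1.23 ± 0.372 (adjusted p = 0.00869), and APTKA medium gave -0.39 ± 0.330 (0.315). APTKA against APTK did not pass (0.84 ± 0.387, 0.0612), but passed with the 2 groups alone (0.0319) and without APTKA I (0.0486), APTK I (0.0358) or irradiated APTK IV (0.0475). The 7 summed leukocyte markers were 4.00 to 4.73 CPM with APTKA medium and 5.19 to 6.80 CPM with APTK medium, against 7.07 to 8.24 CPM in untreated cells, lowest in the group where Itgb2 did not pass. Lyz2 averaged 2.12 CPM with APTKA and 4.40 CPM with APTK medium, against 6.19 CPM in untreated cells, and Cd68 averaged 2.16 CPM with APTKA and 1.69 CPM with APTK medium, against 1.42 CPM in untreated cells. Their part in the result was not tested.

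Itga9, which binds tenascin and osteopontin, averaged 82.9 ± 3.02 CPM with APTKA and 99.5 ± 4.91 CPM with APTK medium, against 79.8 ± 3.70 CPM in untreated cells. It did not pass with APTKA medium (0.05 ± 0.051) and rose with APTK medium (0.32 ± 0.051, adjusted p = 1.14e-05). Itga4, a receptor subunit for Vcam1 and fibronectin, averaged 1.95 ± 0.491 CPM with APTKA and 2.25 ± 0.0737 CPM with APTK medium, against 2.16 ± 0.453 CPM in untreated cells, and did not pass.

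The immunoglobulin superfamily held both extremes of the set. Icam1 (ENSMUSG00000037405, chromosome 9, 21015985 to 21028817) had 38.9, 34.1, 35.7 and 30.6 CPM with APTKA medium and 5.33, 5.77, 5.23 and 5.22 CPM with APTK medium, against 5.00, 3.75, 4.41 and 3.06 CPM in untreated cells. The lowest APTKA library lay far above every library of the other groups without irradiation. The log2 fold change was 3.10 ± 0.117 with APTKA medium (adjusted p = 2.55e-18) and 2.69 ± 0.112 between APTKA and APTK (3.46e-17). The rise with APTK medium was 0.41 ± 0.133 (0.0133), lost without untreated IV (0.29, adjusted p = 0.0770).

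Vcam1, another ligand for leukocyte integrins, went in the other direction with APTKA medium. It averaged 182 ± 8.32 CPM with APTKA and 263 ± 4.78 CPM with APTK medium, against 249 ± 7.52 CPM in untreated cells. It fell with APTKA medium (-0.45 ± 0.072, adjusted p = 4.67e-06) and did not pass with APTK medium (0.08 ± 0.072, 0.407).

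Alcam (ENSMUSG00000022636, chromosome 16, 52248996 to 52454074), a receptor that binds itself and CD6 on T cells, had 8.07, 7.81, 9.35 and 9.56 CPM with APTKA medium and 18.3, 16.5, 14.95 and 17.3 CPM with APTK medium, against 78.0, 62.8, 67.7 and 68.6 CPM in untreated cells. The groups did not overlap. The fall was -3.00 ± 0.093 with APTKA medium (adjusted p = 3.43e-20) and -2.05 ± 0.087 with APTK medium (6.11e-16), and APTKA lay below APTK by -0.95 ± 0.096 (1.80e-09).

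Ncam1 (ENSMUSG00000039542, chromosome 9, 49502136 to 49798925), a neural and mesenchymal adhesion molecule, had 100.1, 98.4, 93.6 and 101 CPM with APTKA medium and 228, 218, 208 and 231 CPM with APTK medium, against 445, 436, 454 and 439 CPM in untreated cells. The groups did not overlap. The log2 fold change was -2.17 ± 0.056 with APTKA medium (adjusted p = 7.88e-22), -1.003 ± 0.054 with APTK medium (4.50e-14) and -1.17 ± 0.055 between APTKA and APTK (3.82e-16). Sox10, a defining marker of enteric glia, was at most 0.105 CPM in any library.

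Mcam (ENSMUSG00000032135, chromosome 9, 44134469 to 44142727), a receptor of pericytes and endothelium, had 130.4, 119.6, 133 and 125 CPM with APTKA medium and 236, 255, 227 and 251 CPM with APTK medium, against 221, 203, 215 and 248 CPM in untreated cells. The APTKA libraries lay below the others, and APTK and untreated libraries overlapped. It fell with APTKA medium (-0.81 ± 0.090, adjusted p = 4.66e-08) and did not pass with APTK medium (0.12 ± 0.089, 0.271).

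Of the cadherins, Cdh11, typical of mesenchymal cells (ENSMUSG00000031673, chromosome 8, 102632095 to 102785642), had 217, 215, 195 and 216 CPM with APTKA medium and 299.8, 307, 332 and 327 CPM with APTK medium, against 466, 424, 439 and 419.6 CPM in untreated cells. The groups did not overlap and APTKA was lowest. The fall was -1.05 ± 0.068 with APTKA medium (adjusted p = 2.28e-13) and -0.47 ± 0.067 with APTK medium (2.56e-06).

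Cdh2, N-cadherin (ENSMUSG00000024304), had the reverse order of media. It had 91.7, 97.7, 107 and 106 CPM with APTKA medium and 62.1, 58.4, 53.0 and 56.2 CPM with APTK medium, against 127, 121, 129.5 and 134 CPM in untreated cells. The groups did not overlap and APTK was lowest. Cdh2 fell by 0.35 ± 0.064 with APTKA medium (adjusted p = 3.22e-05) and by 1.15 ± 0.065 with APTK medium (1.38e-13), and was higher with APTKA than with APTK (0.81 ± 0.065, 2.58e-11).

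Among syndecans, Sdc4, which gathers at focal adhesions with fibronectin receptors, rose with both media. It averaged 113 ± 11.5 CPM with APTKA and 111 ± 3.41 CPM with APTK medium, against 65.9 ± 7.96 CPM in untreated cells (0.78 ± 0.085 and 0.75 ± 0.085, and 0.02 ± 0.083 between APTKA and APTK). Sdc1, the syndecan best known from epithelium and plasma cells, averaged 127.5 ± 6.88 CPM with APTKA and 188 ± 4.01 CPM with APTK medium, against 248 ± 14.2 CPM in untreated cells. Sdc2, a mesenchymal syndecan, averaged 123 ± 1.35 CPM with APTKA and 164 ± 7.61 CPM with APTK medium, against 200.2 ± 7.19 CPM in untreated cells. Both fell with both media, Sdc1 by -0.96 ± 0.070 and -0.40 ± 0.069 and Sdc2 by -0.70 ± 0.054 and -0.29 ± 0.053 (APTKA, then APTK).

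**Figure D2:**
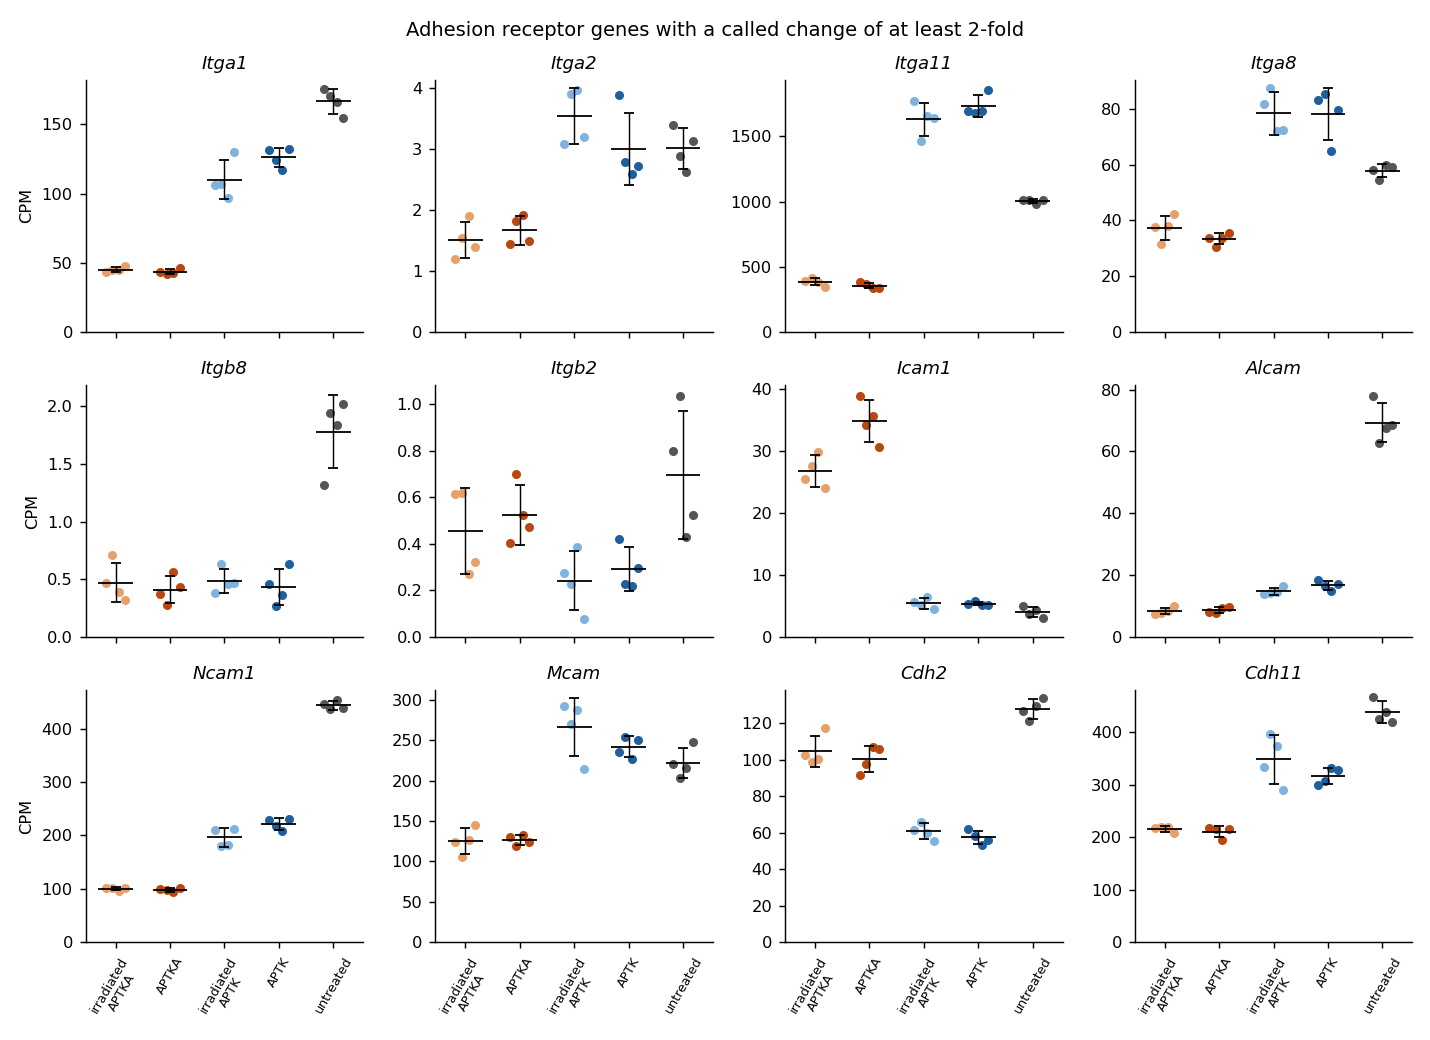
CPM in each library (points; y axes start at 0) with the group mean and SD (bars, n = 4) for the 12 genes with a called change of at least 2-fold in 1 of the first 6 comparisons, in the 5 groups (x axis). Icam1 is high in both APTKA groups, Itga11 and Itga8 are high in both APTK groups, and Alcam, Ncam1 and Itgb8 are high in untreated cells. Itgb8 is reported through the untreated group alone.

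To compare levels between genes, CPM was divided by the length of all exons of a gene in kilobases. On this per-length scale the 14 alpha subunits summed to 193 ± 5.86 with APTKA medium and 474 ± 22.4 with APTK medium, against 328 ± 12.2 in untreated cells (SD, n = 4). Itga11 made up 36.0 ± 2.25% of that sum with APTKA medium and 71.2 ± 1.15% with APTK medium, against 59.6 ± 1.33% in untreated cells. Itga5 made up 34.3 ± 2.32% with APTKA medium and 10.0 ± 0.914% with APTK medium, against 11.8 ± 1.45% in untreated cells. With APTKA medium the ranges of Itga11 (33.2 to 38.1%) and Itga5 (31.6 to 36.4%) overlapped, whereas Itga11 lay far above Itga5 in the APTK and untreated groups. Itgav followed, at 13.2% with APTKA medium and 9.15% with APTK medium, against 14.4% in untreated cells. These shares describe levels and carry no test.

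**Figure D3:**
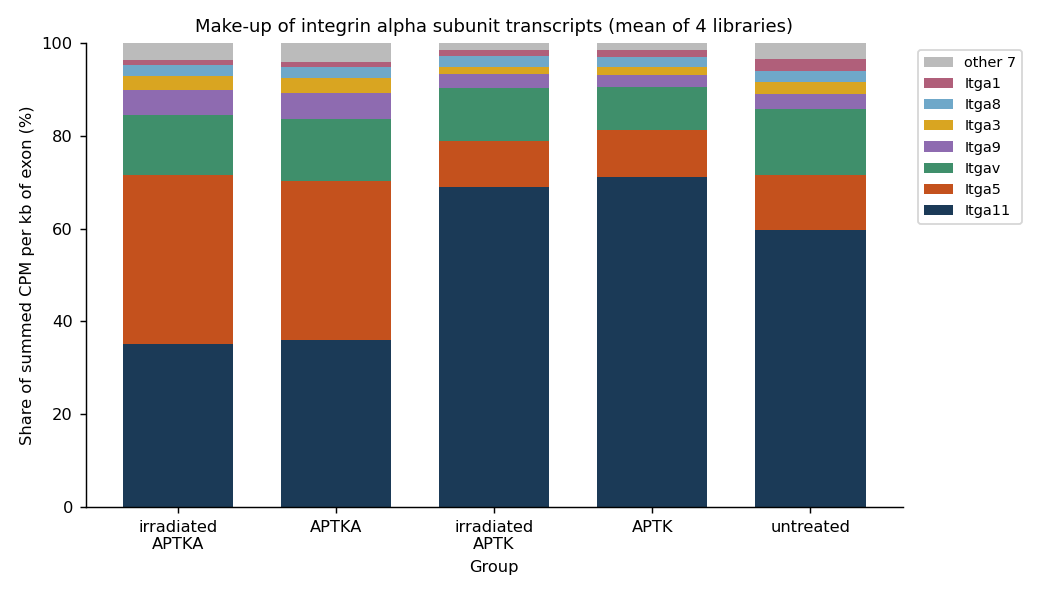
Share of the summed CPM per kilobase of exon of the 14 integrin alpha subunit genes (y axis, %, mean of 4 libraries) held by each gene in the 5 groups (x axis). Itga11 and Itga5 hold similar shares in both APTKA groups, while Itga11 holds most in the APTK and untreated groups.

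Beta subunits and syndecans were set out in the same way. Itgb1 made up 77.7 ± 1.26% of the per-length sum of beta subunits with APTKA medium and 77.7 ± 0.403% with APTK medium, against 74.7 ± 1.51% in untreated cells, and Itgb5 most of the rest. Sdc4 made up 39.3 ± 1.68% of the 3 syndecans with APTKA medium and 31.3 ± 0.816% with APTK medium, against 17.5 ± 1.23% in untreated cells, where Sdc1 held 44.0 ± 0.966%.

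The irradiated media were compared with each other as a second set of libraries for the contrast of APTKA with APTK, since the plain and irradiated pairs share no library. Irradiated APTKA against irradiated APTK medium gave 5 genes higher and 18 lower of 29, 6 by at least 2-fold, against 30.1% higher and 31.2% lower among all genes tested. Of the 21 genes called between APTKA and APTK medium, 20 were called in the same direction between the irradiated media, 95.2% of the first and 87.0% of the second set of calls. Among all genes tested the shares were 84.5% and 86.7%. Sdc1, called in both pairs, gave -0.19 ± 0.069 in the irradiated pair (adjusted p = 0.0205), with overlapping libraries. Its call there was lost with the 2 groups alone (0.0675) and in 5 of 20 fits with 1 library left out. Itga3 was called in the plain pair and not in the irradiated one (-0.17 ± 0.102, adjusted p = 0.146), where it passed with upper quartile scaling (0.0437) and without irradiated APTK II (0.0425). Itga4 (-0.59 ± 0.186), Itga10 (-0.58 ± 0.180) and Sdc4 (0.39 ± 0.084) were called in the irradiated pair and not in the plain pair. The difference between the pairs did not pass for Itga3, Itga4, Itga10 or Sdc4 in the filtered fit. It passed for Sdc4 without a filter (0.39, adjusted p = 0.00134).

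Itga11 held 391, 409.8, 386 and 347 CPM with irradiated APTKA medium and 1769, 1463, 1653 and 1643 CPM with irradiated APTK medium (-2.09 ± 0.064, adjusted p = 5.30e-20). Icam1 held 25.5, 27.6, 29.9 and 24.0 CPM with irradiated APTKA and 5.71, 5.10, 6.41 and 4.49 CPM with irradiated APTK medium (2.29 ± 0.115, 1.86e-15). The order of the media was thus the same as without irradiation. Itga1 held 43.1, 45.0, 44.4 and 47.9 CPM with irradiated APTKA and 106, 107, 97.0 and 130.3 CPM with irradiated APTK medium (-1.29 ± 0.069). Itga8 held 37.8, 31.7, 37.9 and 42.1 CPM with irradiated APTKA and 81.7, 87.6, 72.0 and 72.5 CPM with irradiated APTK medium (-1.07 ± 0.085).

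None of these 4 genes overlapped between the irradiated groups. Mcam had 124.5, 105, 126.5 and 145 CPM with irradiated APTKA and 293, 270.5, 288 and 215 CPM with irradiated APTK medium (-1.09 ± 0.090, adjusted p = 4.31e-10). Itga2 had 1.19, 1.55, 1.90 and 1.40 CPM with irradiated APTKA and 3.08, 3.90, 3.96 and 3.20 CPM with irradiated APTK medium (-1.23 ± 0.166, 3.34e-07). Both were also lower with APTKA than with APTK medium without irradiation (-0.93 ± 0.090 and -0.85 ± 0.166).

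The effect of the irradiated arm within a medium was small for these genes. Irradiated APTKA against APTKA medium gave 1 gene higher and 0 lower of 29, against 0.452% higher and 0.277% lower among all genes tested, and medians of 0.05 over the 29 genes and 0.00 over all. The gene was Sdc1, with 150.0, 165, 162 and 144 CPM with irradiated APTKA medium and 135, 128.5, 127.5 and 119 CPM with APTKA medium. The groups did not overlap. The log2 fold change was 0.29 ± 0.069 with an adjusted p of 0.0462, which ran from 0.000188 to 0.177 over 26 alternatives. The call was lost with upper quartile scaling (0.0678), with the replicate block (0.0752) and in 14 of 20 fits with 1 library left out. These left out each of the 4 irradiated APTKA libraries (adjusted p 0.0510 to 0.161), APTKA II, III and IV (0.128, 0.141 and 0.177), or, outside the comparison, any APTK library, untreated II or III, or irradiated APTK I (0.0530 to 0.0639).

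Icam1 averaged 26.7 ± 2.57 CPM with irradiated APTKA medium and 34.8 ± 3.41 CPM with APTKA medium, and the libraries did not overlap. The difference of -0.38 ± 0.097 did not pass (adjusted p = 0.0607). It passed with upper quartile scaling (0.0451), without a filter (0.00229), with the replicate block (0.0238), with the 2 groups alone (0.00428) and with DESeq2 (0.0165), and in 5 of 20 fits with 1 library left out (untreated I or IV, or irradiated APTK II, III or IV, 0.0278 to 0.0481). Its adjusted p reached 0.209 over the alternatives. Upper quartile scaling thus gave 0 genes higher and 1 lower of 29, with 47 higher and 47 lower among all genes tested, where the TMM-scaled fit had 67 higher and 41 lower. DESeq2 called 4 of the 29 and 307 of all genes tested. The 4 were Sdc1, Icam1, Itgb1 (adjusted p = 0.0354) and Itgb3 (0.0209). Itgb3 averaged 27.7 ± 0.887 CPM with irradiated APTKA and 23.5 ± 2.07 CPM with APTKA medium, without overlap (0.24 ± 0.064, edgeR adjusted p = 0.0849). It also passed without a filter (0.0400), with the 2 groups alone (0.0438) and without APTKA I (0.0375) or irradiated APTK II (0.0352). Itga5 passed without a filter (0.0387), and Vcam1 with the 2 groups alone (0.0232) and without irradiated APTK II (0.0383).

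Irradiated APTK against APTK medium gave 0 genes higher and 0 lower of 29 with edgeR, against 0.547% higher and 0.837% lower among all genes tested. DESeq2 called 2 of the 29, Itgav and Ncam1, and 439 of all genes tested. Itgav averaged 565 ± 48.0 CPM with irradiated APTK and 467 ± 48.9 CPM with APTK medium (0.28 ± 0.082, adjusted p = 0.0938), and Ncam1 196 ± 17.5 CPM with irradiated APTK and 221 ± 10.8 CPM with APTK medium (-0.17 ± 0.054, 0.104). Without irradiated APTK IV, 5 genes passed: Itga1 (-0.29, adjusted p = 0.00167), Itga3 (-0.33, 0.00328), Itgav (0.32, 0.0189), Ncam1 (-0.21, 0.0143) and Cdh11 (0.22, 0.0198).

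The test of the difference between the irradiation effects with APTKA and with APTK medium gave 0 genes higher and 0 lower of 29 with edgeR, against 0.121% higher and 0.0607% lower among all genes tested. DESeq2 called 1 of the 29, Sdc1 (adjusted p = 0.0387), and 114 of all genes tested. The fit without a filter called 2, Sdc1 (0.40, adjusted p = 0.000974) and Sdc4, and 209 of all genes. The difference for Sdc1 was 0.37 ± 0.098 (adjusted p = 0.125) and for Icam1 -0.40 ± 0.162 (0.425). Without irradiated APTK IV it passed for Itga1 (0.34, adjusted p = 0.0167), Vcam1 (-0.38, 0.0235) and Sdc1 (0.42, 0.0181).

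**Figure D4:**
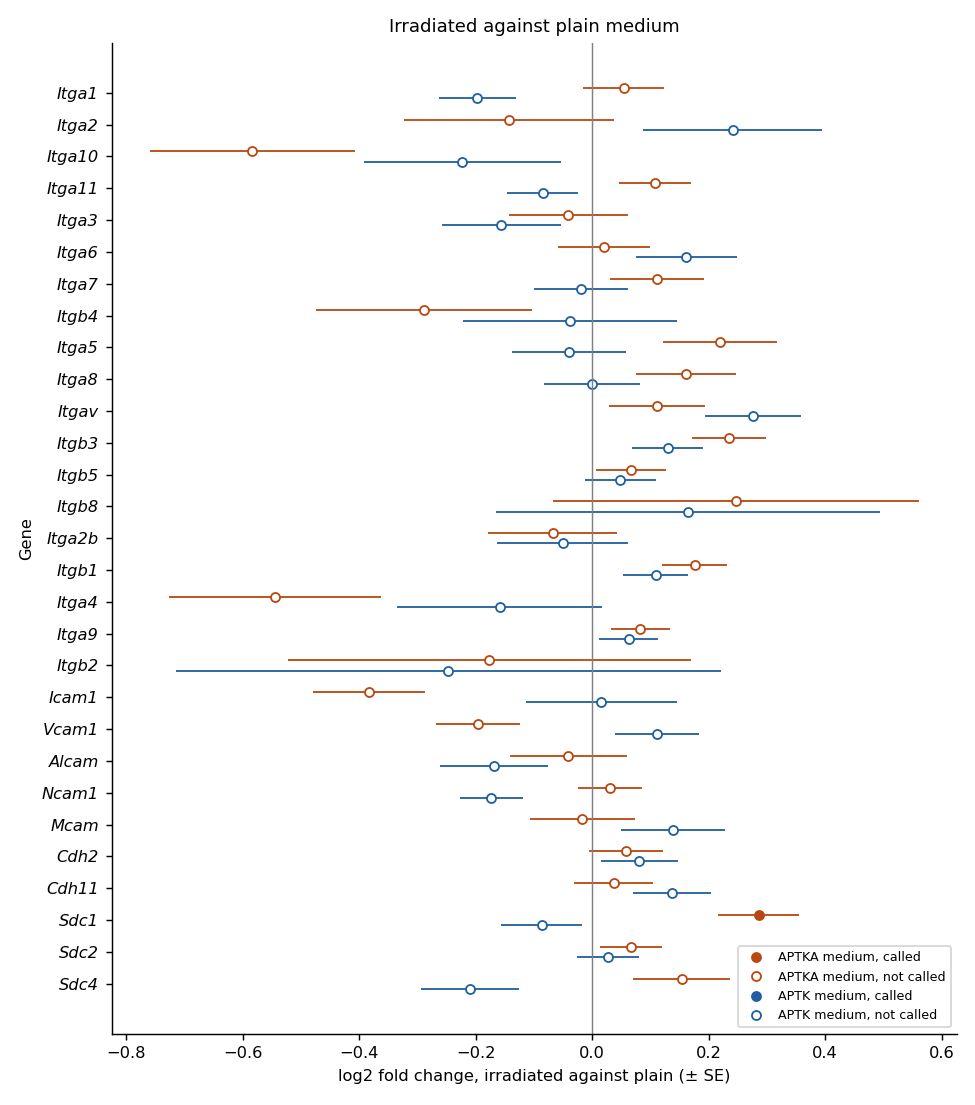
Log2 fold change of irradiated against plain medium (x axis, ± SE) of the 29 reported genes (y axis) with APTKA (orange) and APTK medium (blue); filled points passed the 5% threshold. Sdc1 with APTKA medium is the 1 filled point, and all values lie within 0.6 of 0.

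Genes that work with these receptors were counted from 4 lists. Of 25 tested integrin adaptors and focal adhesion signalling genes, 14 rose and 5 fell with APTKA medium and 4 rose and 9 fell with APTK medium, and 12 were higher and 2 lower with APTKA than with APTK. The shares of all genes tested were 31.5% higher and 29.9% lower with APTKA medium, 20.9% and 22.5% with APTK medium, and 31.1% and 31.8% between APTKA and APTK, and are the background of all 4 lists. Among the called adaptor genes Parvb changed most with each medium. It rose by 1.997 ± 0.547 with APTKA (adjusted p = 0.00244) and by 1.515 ± 0.588 with APTK medium (0.03835). Pxn, the focal adhesion scaffold paxillin, rose by 1.09 ± 0.052 with APTKA medium and was higher with APTKA than with APTK (0.83 ± 0.051). Ptk2, focal adhesion kinase, was higher by 0.65 ± 0.050 with APTKA than with APTK. The list's median with APTKA medium was 0.20 and with APTK medium -0.07, against 0.00 over all genes in both. In the irradiated pair 15 adaptor genes were higher and 1 lower, against 30.1% and 31.2% of all genes tested. The list's median there was 0.265, against -0.031 over all genes. The 1 lower gene was Parva, an actin-binding adaptor, at -0.81 ± 0.085.

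Of 23 tested extracellular ligands, 5 rose and 13 fell with APTKA medium and 3 rose and 6 fell with APTK medium, and 4 were higher and 14 lower with APTKA than with APTK. The higher and lower shares with APTK medium lay near those of all genes. The list's median was -0.53 with APTKA medium and -0.11 with APTK medium. Spp1, osteopontin, a ligand of RGD-binding integrins, rose by 3.41 ± 0.377 with APTKA medium. It shares exon bases with Gm42793 on its strand, so its reads are uncertain. Col6a1, a collagen VI chain, fell by 1.38 ± 0.068 with APTKA medium. With irradiation 1 ligand gene was higher with APTKA medium, Nid1 (0.29 ± 0.060), a basement membrane linker, against 0.452% of all genes. With APTK medium 3 were higher, against 0.547% of all genes: Spp1 (1.94 ± 0.374), Tnc (0.45 ± 0.078) and Nid1 (0.23 ± 0.060).

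Of 10 tested catenins and nectin partners, 3 rose and 3 fell with APTKA medium and 2 rose and 6 fell with APTK medium, and 4 were higher and 1 lower with APTKA than with APTK. The counts with APTKA medium lay near the shares of all genes, and the list's median there was 0.05. Cdh3, P-cadherin, fell by 1.71 ± 0.072 with APTKA medium. Of 18 tested tetraspanins and other receptors, 3 rose and 13 fell with APTKA medium and 2 rose and 9 fell with APTK medium, and 5 were higher and 11 lower with APTKA than with APTK. The median of the list was -0.39 with APTKA medium and -0.20 with APTK medium. Cd44, the hyaluronan receptor, rose by 1.33 ± 0.106 and Ddr2, a kinase receptor for fibrillar collagen, fell by 1.30 ± 0.052 with APTKA medium.

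Shared sequence limits some values. Of the 29 genes, 9 share exon bases with another annotated gene, 8 of them on the opposite strand alone, and the strand setting of the counting is not given in the sources used here. Ncam1 shares 417 bases with Gm11149, Itga8 372 with E030013I19Rik, Itgav 634 with Gm13684, Itga4 1124 with Cerkl and Itgb4 537 with B230344G16Rik. Vcam1 shares 61 bases, Mcam 17 and Itga7 9 with such genes.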

How the data were processed

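RNA-seq read counts per gene of 20 libraries were analysed. The deposited values were raw, whole-number counts per gene, made by the authors with bcl2fastq 2.20.0.422, STAR 2.5.2a and featureCounts 1.5.0-p1 on mm10, per the submitters' processing notes. The annotation release, strand setting and handling of multiply mapped reads were not given in the sources used here, and RNA was extracted with a Qiagen RNeasy kit, per the labels. Library totals were 17.3 to 31.6 M counts, and no pair of libraries of a group matched as closely as counting noise allows (chi-square over its degrees of freedom, 4.79 to 88.2 in 30 pairs), so each counted once.

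In R 4.3.3, edgeR 4.0.16 fitted 5 group means to all 20 libraries at once (15 residual degrees of freedom) with TMM scaling, filterByExpr by group and robust quasi-likelihood dispersion. Adjusted p-values are Benjamini-Hochberg over 14820 genes, called at 5%. SE was taken as the size of the log2 fold change divided by the root of the F statistic. CPM used TMM-scaled totals, and means are ± SD over 4 libraries. Per-length levels used GENCODE M21 exon unions (GRCm38, the assembly of mm10), and promoter windows came from RefSeq. The script was tested on simulated data. Alternatives were RLE and upper quartile scaling, no filter, DESeq2 1.42.0, the groups of a comparison alone, a replicate block and leaving out each library.

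Every reported gene is named. Values of each library are given for genes called with a log2 fold change of at least 1 in 1 of the first 6 comparisons and for Sdc1, and the others by mean and SD. From each of 4 further lists and 7 marker lists, counts or sums and a few called genes are given. The genes and lists were chosen with earlier results of these data known.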

Additional observations from a re-analysis of the deposited data

Results flagged for a closer look

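In 145 checks of 4 libraries each (29 genes in 5 groups), 7 held a library far from the other 3 by Dixon's test, and chance flags about 1 in 20 such groups. Itga11 had 1858 CPM in APTK IV against 1679 to 1696 CPM in the other APTK libraries, and 978.7 CPM in untreated III against 1009 to 1014 CPM in the other untreated ones. Itga2 had 3.876 CPM in APTK I, against 2.595 to 2.79 CPM in the others. Itga10 had 2.127 CPM in untreated IV, against 2.797 to 2.888 CPM. Cdh11 had 195 CPM in APTKA III, against 214.9 to 216.7 CPM. Sdc2 had 175 CPM in APTK I against 159.3 to 160.7 CPM, and 190.9 CPM in irradiated APTK II against 156.1 to 161.2 CPM.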

How the results depend on the processing

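The counts of called receptor genes in the 4 comparisons between media or with untreated cells moved little: leaving out 1 library gave 22 to 23 with APTKA medium, 19 to 21 with APTK medium, 20 to 22 between APTKA and APTK, and 22 to 25 between the irradiated media. The irradiation counts moved by more than 1.5 times, and the cause was not tested. For irradiated against plain APTKA medium, called receptor genes (1) and all called genes (108) became 4 and 316 without a filter, 4 and 512 with the 2 groups alone, 4 and 307 with DESeq2, and 0 to 4 and 34 to 294 with 1 library left out (most without irradiated APTK II). For irradiated against plain APTK medium, 0 and 205 became 3 and 492 without a filter, 2 and 439 with DESeq2, and 0 to 5 and 32 to 1271 with 1 library left out (most without irradiated APTK IV), and all called genes 10 with the 2 groups alone. For the difference of irradiation effects, 0 and 27 became 2 and 209 without a filter, 1 and 114 with DESeq2, and 0 to 3 and 4 to 307 with 1 library left out (most without irradiated APTK IV). Replicate numbers did not pair the libraries: 24 correlations of same-numbered libraries ran from -0.0956 to 0.0959, none over 0.1, and 8 libraries correlated best with their own number. With the replicate block the called receptor genes were 23, 21, 21, 1, 0, 23 and 0 in the 7 comparisons, and of 203 values only those of Sdc1 (lost, adjusted p = 0.0752) and Icam1 (gained, 0.0238) for irradiated against plain APTKA medium changed their call. Of the values of single genes, calls lost and gained were 0 and 0 with RLE scaling, 3 and 4 with upper quartile scaling, 2 and 8 without a filter, 2 and 4 with the groups of a comparison alone, 0 and 6 with DESeq2, and 32 and 25 over the fits with 1 library left out, and no called value changed sign. DESeq2 gave no adjusted p for 2, 1 and 2 receptor genes in the 3 irradiation comparisons. The same 29 genes were reported with unscaled totals. Depth limits Itgb2 and Itgb8, both under 2.1 CPM in every library.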
